A study of Mus musculus with 4 samples.

Results

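Chaperone genes of the cytosol and mitochondria were followed in mouse helper T cells with and without BATF3, a transcription factor of the basic leucine zipper family. The genes were chosen by name, from a list of 32 symbols covering heat shock proteins, their cochaperones and the subunits of the cytosolic chaperonin. Of the 32, 31 had a row among the 25509 genes of the deposited table, and 30 had enough counts to be tested. Cct6a is not analysed here, and Hspb1 was too low to be tested.

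The cells were naive CD4+ T cells sorted from mouse spleen (low for CD44, high for CD62L and without CD25) and stimulated for 72 h through CD3 and CD28 with TGF-beta, IL-4 and TL1A, which are conditions for TH9 cells, the helper T cells that secrete interleukin 9. TL1A is a TNF-family cytokine. There were 2 libraries from Batf3-/- cells and 2 from wild-type (WT) cells, all with the same treatment and time, so genotype was the labelled difference. The labels give no strain, age or sex of the mice, and they do not say whether the 2 libraries of a genotype came from separate mice, so each test measures only the spread between these 4 samples.

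Chaperones bind unfolded or partly folded proteins and let them fold, assemble or be handed on. HSP70 proteins cycle between loose and tight binding of a client as ATP is hydrolysed, a cycle that J-domain proteins of the HSP40 family start and nucleotide exchange factors end. HSP90 takes over clients that are already partly folded, many of them kinases and steroid receptors, with the help of cochaperones. The chaperonin CCT, also called TRiC, encloses newly made actin, tubulin and other proteins in a chamber built of different subunits, and HSP60 with its lid HSP10 does the same in the mitochondrial matrix. T cells that leave quiescence make much more protein and need this machinery, and many of its genes are induced by the heat shock factor HSF1 when unfolded proteins accumulate.

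HSF1 binds inverted repeats of the bases GAA. Promoter windows from the RefSeq table (build GRCm38.p6), which run from 250 bases before to 50 after an annotated gene start, were found for 26 of the 32 listed genes, in 33 windows. A pair of repeats (GAANNTTC or TTCNNGAA, each of which reads the same on both strands) was in 15 of the 33 member windows, belonging to 14 genes, and in 15.1% of all 32851 windows of the table. The longer element of 3 repeats (GAA and TTC in turn, 3 in all, starting with either and with NN between neighbours, so that both strands were searched and each element contains 2 overlapping pairs) was in 5 of 33 member windows, belonging to Hspd1, Hspe1, Hsph1 and Chordc1, and in 0.603% of all windows. The window of Hspe1 overlaps one of Hspd1 on the opposite strand, and Hsph1 has 2 overlapping windows, so the windows are not independent. The AP-1 motif TGANTCA, of the kind bound by BATF-family dimers with JUN proteins, was in 2 member windows (Bag3 and Cct5) and in 7.81% of all windows. The cyclic AMP response element TGACGTCA was in 1 member window (Trap1) and in 1.79% of all. These are matches of letters within the windows and show no binding.

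Promoter windows of 4 members are printed 5′ to 3′ with every base of a heat shock pair in capitals. Hspa1a and Hspa1b are shown because these neighbouring stress-inducible genes are near-identical copies: Hspa1a at chr17:34972107-34972406 and Hspa1b at chr17:34959189-34959488, both on the minus strand, were alike at 296 of 300 bases, and the capitals lie at bases -104 to -97 from the gene start in both. Hspe1 (chr1:55087898-55088197, plus strand, capitals at -89 to -72) and Chordc1 (chr9:18292017-18292316, plus strand, capitals between -4 and 41) are shown because they carry the longer element and had the largest negative log2 fold changes of the members. Without WT replicate 1 these were -0.08 for Hspe1 and -0.04 for Chordc1. Hspd1 and Hsph1, which also carry the longer element, had log2 fold changes of 0.11 and -0.09 in the main fit.
Hspa1a: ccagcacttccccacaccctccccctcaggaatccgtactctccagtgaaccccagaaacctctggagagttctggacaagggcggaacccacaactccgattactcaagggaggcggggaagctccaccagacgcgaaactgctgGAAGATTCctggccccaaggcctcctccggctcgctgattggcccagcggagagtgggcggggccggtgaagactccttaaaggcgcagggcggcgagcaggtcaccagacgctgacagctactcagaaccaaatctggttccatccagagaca
Hspa1b: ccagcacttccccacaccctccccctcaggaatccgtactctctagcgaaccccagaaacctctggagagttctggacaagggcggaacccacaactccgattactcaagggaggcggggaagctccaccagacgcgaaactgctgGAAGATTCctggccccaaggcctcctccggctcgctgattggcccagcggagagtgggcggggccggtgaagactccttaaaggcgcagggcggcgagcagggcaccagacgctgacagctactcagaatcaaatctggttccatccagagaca
Hspe1: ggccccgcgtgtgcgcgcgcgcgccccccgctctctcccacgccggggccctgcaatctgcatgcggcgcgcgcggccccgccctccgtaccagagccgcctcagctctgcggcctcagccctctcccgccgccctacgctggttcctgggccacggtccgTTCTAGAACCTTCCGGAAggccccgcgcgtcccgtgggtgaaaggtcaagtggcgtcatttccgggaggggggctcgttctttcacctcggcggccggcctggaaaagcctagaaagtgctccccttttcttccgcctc
Chordc1: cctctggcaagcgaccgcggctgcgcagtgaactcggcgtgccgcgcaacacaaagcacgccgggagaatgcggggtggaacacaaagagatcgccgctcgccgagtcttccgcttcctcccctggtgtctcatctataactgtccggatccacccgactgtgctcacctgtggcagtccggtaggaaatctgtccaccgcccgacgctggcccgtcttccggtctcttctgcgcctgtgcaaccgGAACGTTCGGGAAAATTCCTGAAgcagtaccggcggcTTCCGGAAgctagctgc

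Estimated counts summed to 31098059 and 15624874 in Batf3-/- replicates 1 and 2 and to 23754946 and 27285811 in WT replicates 1 and 2. Batf3 itself had 17 and 8 counts in the Batf3-/- libraries and 1439 and 1661 in the WT libraries, a log2 fold change of -6.84 ± 0.30 (SE; edgeR adjusted p = 3.8e-11), which matches the genotype labels. All 7 T cell markers with a row were detected at 1 CPM (counts scaled to each library's size, with TMM factors) or more in every library, and the 45 markers of other cell types with a row summed to 53.2 and 56.0 CPM in Batf3-/- and 63.3 and 55.5 CPM in WT libraries, with 17 of them at 0 throughout. The replicate numbers also divided a sex-linked transcript: Xist had 0.0944 and 144 CPM in Batf3-/- replicates 1 and 2 and 0.214 and 166 CPM in WT replicates 1 and 2. The 4 Y-linked genes examined were expressed in every library and lower in replicate 2 than in replicate 1 of the same genotype, as in Eif2s3y with 107 and 70.4 CPM in Batf3-/- replicates 1 and 2 and 158 and 60.8 CPM in WT replicates 1 and 2. With Xist below 1 CPM only in replicate 1, the 2 libraries of a genotype did not come from one pool of cells. How many mice each held, and whether any were shared, is not given. The titles give both replicate 1 libraries one prefix and both replicate 2 libraries another, without saying what it marks. The part of this division in any chaperone value was not tested, and the main results are therefore also given for each replicate number on its own.

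The chaperone genes were a large and steady part of the transcriptome of both genotypes. The 31 genes with a row took 1.92% and 1.82% of all counts in Batf3-/- replicates 1 and 2 and 1.90% and 1.97% in WT replicates 1 and 2. Hsp90ab1, Hspa8, Tcp1 and Hsp90aa1 together held 62.1% and 62.8% of those counts in Batf3-/- libraries and 63.9% and 62.7% in WT libraries. Of the 30 tested genes, 26 had a mean of 50 CPM or more, and the median member ranked at the 95.5th percentile of level among the 12135 tested genes. The lowest tested members were Hspa1a, Bag3 and Hspa1b, which are induced by stress. Other inducible members stood higher, such as Hsp90aa1 at a mean of 1118 CPM over all libraries and Chordc1 at 88.6 CPM.

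**Figure D1:**
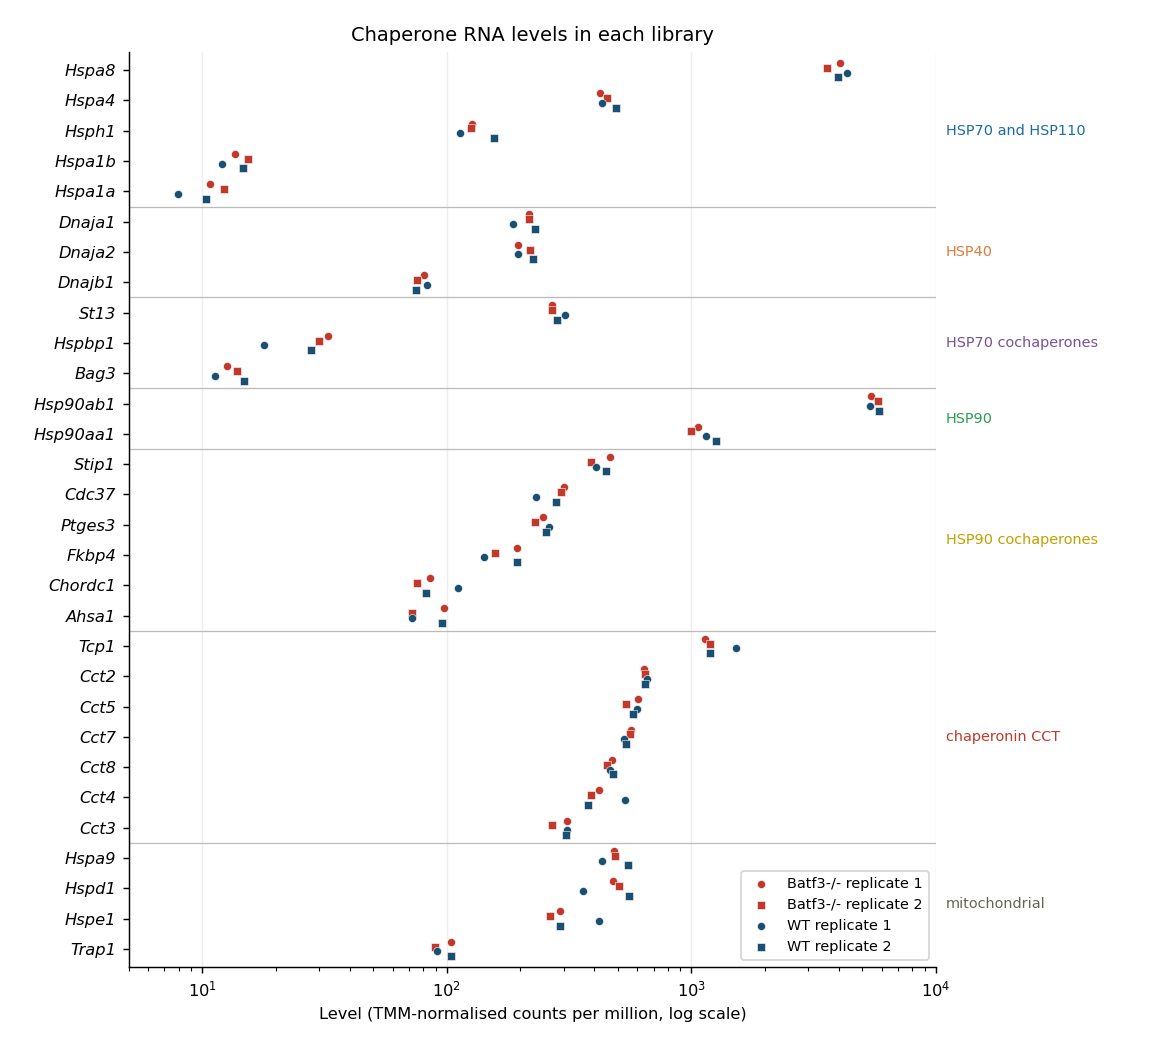
Level of the 30 tested chaperone genes in each library, in normalised CPM on a log axis, with genes grouped by role. Points are single libraries of Batf3-/- and WT cells, and for most genes the 4 points lie nearly on top of each other, from about 10 CPM for Hspa1a to 5606 CPM on average for Hsp90ab1.

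None of the 30 tested members was called different between Batf3-/- and WT cells. In RNA from whole cultures, fewer cells that express a gene and less RNA of it per cell cannot be told apart. By edgeR's quasi-likelihood test with Benjamini-Hochberg adjustment over all 12135 tested genes at 0.05, 0 members passed, against 0.132% of all genes. Of all genes, 0.0824% passed as higher in Batf3-/- cells (10 genes) and 0.0494% as lower (6 genes). At an unadjusted p under 0.05 edgeR again gave 0 members, against 4.8% of all genes, of which 3.4% were higher and 1.4% lower in Batf3-/- cells. DESeq2 called 0 members (0.188% of all genes) and gave 0 at an unadjusted p under 0.05 (2.95% of all genes). Limma-voom called 0 (0.124%) and gave 1, Hspbp1, at an unadjusted p under 0.05 (5.09%). Adjusted p-values of the members by edgeR lay between 0.958 and 0.999. The log2 fold change was positive in 12 of 30 members (40.0%) and in 48.4% of all tested genes, and its median was -0.02 over the members and -0.01 over all tested genes. With upper-quartile scaling 18 of 30 members were positive, so the count rests on values close to 0. Members ran from -0.36 (Hspe1) to 0.46 (Hspbp1), with standard errors between 0.184 and 0.250.

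Within the main fit of these 4 libraries, the confidence intervals bound the size of change in each member. Their median degrees of freedom were 18.8, and the prior shared across genes had a median of 16.8. The bounds do not cover other settings: Hspbp1 had a log2 fold change of 0.82 without WT replicate 2 and 0.17 without WT replicate 1. For all 30 members the 95% confidence interval of the fold change lay within a 2-fold change either way, which held for 79.7% of all tested genes and for 98.6% of the 4096 tested genes at a mean of 50 CPM or more. The lowest bound was a 0.578-fold level in Batf3-/- cells (Hspe1) and the highest a 1.92-fold level (Hspbp1). For 21 of 30 members the interval lay within 1.5-fold either way, against 35.2% of all tested genes, and for the 26 members at 50 CPM or more this was 20 of 26, against 58.7% of all genes at that level.

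**Figure D2:**
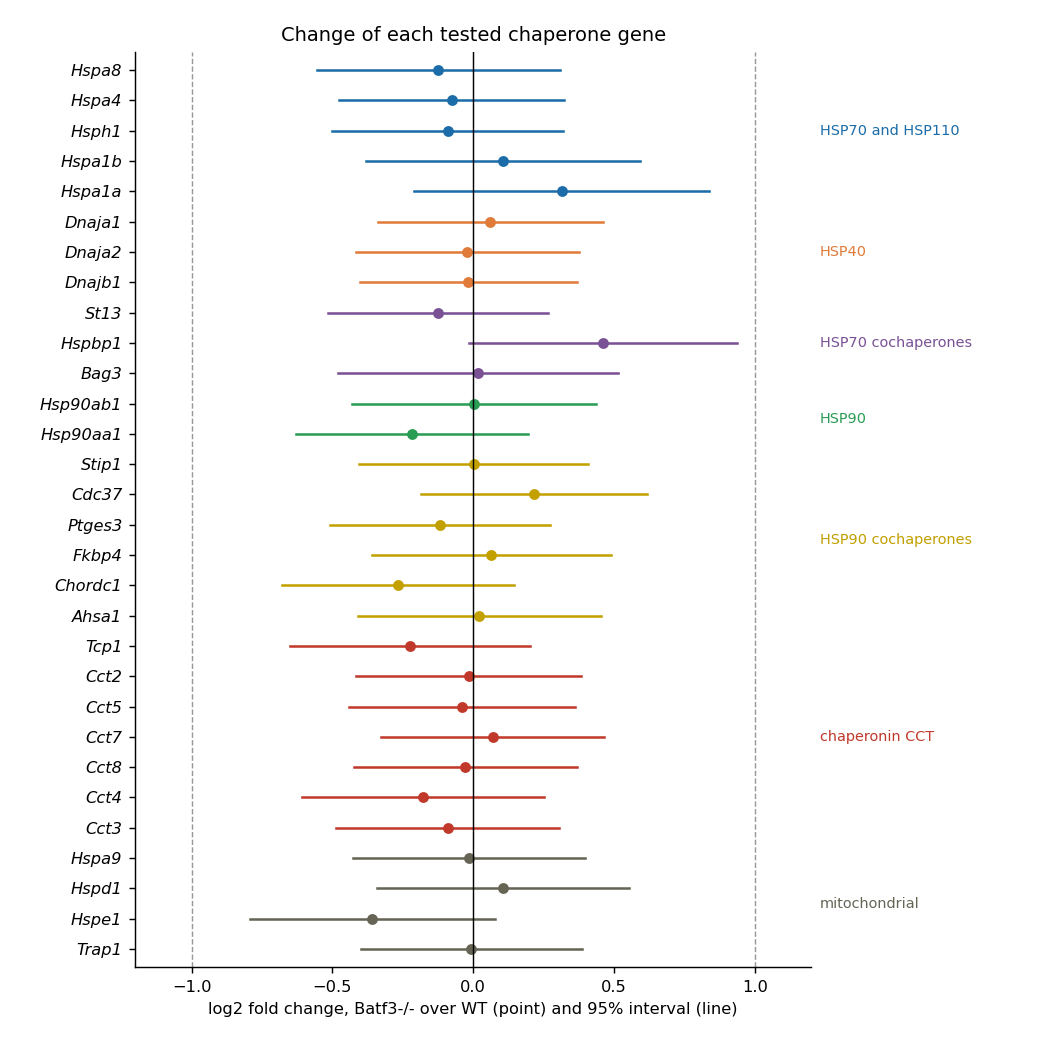
Log2 fold change of each tested chaperone gene, Batf3-/- over WT, with its 95% confidence interval from edgeR, grouped by role. Intervals of all 30 genes cross 0 and lie between -1 and 1, which are 2-fold changes down and up.

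The genotypes failed to overlap in 4 members that were higher in both Batf3-/- libraries (Hspa1a, Hspbp1, Cdc37 and Cct7), against 18.2% of all tested genes. They failed to overlap in 5 members that were lower in both (St13, Hsp90aa1, Ptges3, Cct2 and Tcp1), against 15.6% of all tested genes. Both shares, 13.3% and 16.7% of the members, were near those of all genes, and none of these 9 genes passed the test. With 2 libraries against 2, an exact permutation test of a single value cannot go below a two-sided p of 0.333.

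Among the HSP70 proteins, Hspa8, which encodes the constitutive cytosolic HSP70 (HSC70), was by far the most abundant. It had 4036 and 3594 CPM in Batf3-/- libraries and 4339 and 3975 CPM in WT libraries. The genotypes overlapped, and the log2 fold change was -0.12 ± 0.21 (SE; edgeR adjusted p = 0.969). Of the possible 75-base reads of its longest transcript, 68.0% also occur in other annotated genes, none with a row in the table, so its level depends on how such reads were assigned.

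Hspa1a and Hspa1b, the stress-inducible HSP70 genes, were expressed at a far lower level than Hspa8. Hspa1a (chromosome 17, 34969190 to 34972156, GRCm38) had 10.7 and 12.2 CPM in Batf3-/- libraries and 7.97 and 10.4 CPM in WT libraries, so both Batf3-/- values were above both WT values, by little (log2 fold change 0.31 ± 0.25 SE, edgeR adjusted p = 0.958). Hspa1b (chromosome 17, 34956436 to 34959238) had 13.6 and 15.3 CPM in Batf3-/- libraries and 12.0 and 14.7 CPM in WT libraries, and the genotypes overlapped (0.11 ± 0.23, adjusted p = 0.975 by edgeR). The split between the copies is uncertain, since 52.7% of the 75-base reads of Hspa1a also occur in Hspa1b. Summed, the pair had 24.3 and 27.5 CPM in Batf3-/- libraries and 20.0 and 25.1 CPM in WT libraries, with a log2 fold change of 0.20 ± 0.21 (SE), a 95% interval of -0.25 to 0.65 and an edgeR adjusted p of 0.958. Per kilobase of transcript, the level of Hspa8 was 348 and 275 times that of Hspa1b in Batf3-/- libraries and 423 and 316 times in WT libraries. Over the length of all annotated exons the ratio of the mean levels was 172 in Batf3-/- and 203 in WT cells.

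The HSP110 genes, whose products exchange nucleotide on HSP70, showed no called difference either. Hspa4 averaged 437 ± 20 CPM in Batf3-/- and 461 ± 41 CPM in WT cells (SD, n = 2 each), a log2 fold change of -0.08. Hsph1 averaged 126 ± 1.5 CPM in Batf3-/- and 134 ± 30 CPM in WT cells (SD, n = 2 each), a log2 fold change of -0.09. Its WT libraries stood on either side of both Batf3-/- libraries, at 113 and 155 CPM, and the log2 ratio of Batf3-/- over WT was 0.17 in replicate 1 and -0.31 in replicate 2.

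The HSP40 genes encode J-domain proteins that bring clients to HSP70 and start its ATP hydrolysis. Dnaja1, the most abundant of them, had 217 CPM in both Batf3-/- libraries and 187 and 229 CPM in WT libraries. Both Batf3-/- values lay between the WT values, and the log2 fold change was 0.06 ± 0.19 (SE; edgeR adjusted p = 0.980). Dnaja2 averaged 207 ± 17 CPM in Batf3-/- and 210 ± 20 CPM in WT cells (SD, n = 2 each), and Dnajb1, a partner of HSP70 in the heat shock response, 77.8 ± 3.5 CPM in Batf3-/- and 78.8 ± 5.6 CPM in WT cells. Their log2 fold changes were -0.02 each.

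The cochaperones of HSP70 held the member with the largest positive log2 fold change. Hspbp1, a nucleotide exchange factor of HSP70, had 32.7 and 30.1 CPM in Batf3-/- libraries and 17.9 and 27.7 CPM in WT libraries. The Batf3-/- libraries stood close together above both WT libraries, and WT replicate 1 was far below the rest. The log2 fold change was 0.46 ± 0.23 (SE; edgeR unadjusted p = 0.0564, adjusted p = 0.958), and the replicate 1 libraries gave a log2 ratio of 0.87 where the replicate 2 libraries gave 0.12. When WT replicate 2 was left out Hspbp1 passed the threshold, at a log2 fold change of 0.82 (edgeR adjusted p = 0.0230), and without WT replicate 1 it was 0.17 (edgeR adjusted p = 0.975). With WT replicate 2 left out, 2 of 30 members (Hspbp1 and Hspe1) and 4.46% of all genes tested passed.

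St13, which encodes HIP, a protein that steadies the tight-binding state of HSP70, had 269 CPM in both Batf3-/- libraries and 304 and 283 CPM in WT libraries. Both Batf3-/- values were below both WT values, and the difference was small (log2 fold change -0.13 ± 0.19 SE, edgeR adjusted p = 0.962). Bag3, a stress-induced nucleotide exchange factor that links HSP70 to autophagy, averaged 13.3 ± 0.88 CPM in Batf3-/- and 13.1 ± 2.5 CPM in WT cells (SD, n = 2 each), a log2 fold change of 0.02. Bag3 is also a member with the AP-1 motif in its window.

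Of the HSP90 genes, Hsp90ab1, the constitutive cytosolic form, was the most abundant member of the whole set. It had 5442 and 5781 CPM in Batf3-/- libraries and 5358 and 5843 CPM in WT libraries, with both Batf3-/- values between the WT values and a log2 fold change of 0.00 ± 0.21 (SE; edgeR adjusted p = 0.998). Hsp90aa1, the inducible form, had 1067 and 1000.4 CPM in Batf3-/- libraries and 1144 and 1260 CPM in WT libraries. Both Batf3-/- values were below both WT values, at a log2 fold change of -0.22 ± 0.20 (SE; edgeR adjusted p = 0.958), with -0.10 within replicate 1 and -0.33 within replicate 2. Per kilobase of transcript, the level of Hsp90ab1 was 6.64 and 7.52 times that of Hsp90aa1 in Batf3-/- libraries and 6.10 and 6.04 times in WT libraries. In Hsp90aa1, 53.1% of possible 75-base reads also occur in other annotated genes without a row, against 0.736% in Hsp90ab1, so this ratio also depends on how such reads were assigned. The counts of Hsp90aa1 were whole in every library, whereas those of Hspa8 were fractional in all 4.

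HSP90 is steered by cochaperones with separate roles. Stip1, whose product HOP passes clients over to HSP90 from HSP70, had 463 and 389 CPM in Batf3-/- libraries and 405 and 446 CPM in WT libraries, a log2 fold change of 0.00 ± 0.19 (SE; edgeR adjusted p = 0.999). The Batf3-/- libraries enclosed the WT libraries. Ahsa1, which encodes the activator of the HSP90 ATPase, had 97.7 and 72.2 CPM in Batf3-/- libraries and 72.1 and 95.4 CPM in WT libraries. Its genotypes covered the same range in crossed order, with log2 ratios of Batf3-/- over WT of 0.44 in replicate 1 and -0.40 in replicate 2 and a log2 fold change of 0.02 ± 0.21 (SE; edgeR adjusted p = 0.991). Fkbp4, an immunophilin of steroid receptor complexes, also changed sign, with 0.44 in replicate 1 and -0.30 in replicate 2 around a log2 fold change of 0.06. Its Batf3-/- libraries, at 192.7 and 157.6 CPM, lay between its WT libraries, at 141.6 and 193.4 CPM.

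Cdc37, the cochaperone that brings kinases to HSP90, averaged 297 ± 4.5 CPM in Batf3-/- and 256 ± 34 CPM in WT cells (SD, n = 2 each). The genotypes did not overlap, and the log2 fold change of 0.22 did not pass the test (edgeR adjusted p = 0.958). It was 0.08 with WT replicate 1 left out and 0.36 with WT replicate 2 left out. Ptges3, which encodes the cochaperone p23, averaged 238 ± 13 CPM in Batf3-/- and 258 ± 5.8 CPM in WT cells (SD, n = 2 each), a log2 fold change of -0.12. Chordc1, which encodes the stress-induced HSP90 partner morgana, had 85 and 75.8 CPM in Batf3-/- libraries and 111 and 82.2 CPM in WT libraries, a log2 fold change of -0.27 ± 0.20 (SE; edgeR adjusted p = 0.958). Only WT replicate 1 stood apart from the other 3 Chordc1 libraries.

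The chaperonin CCT is assembled from different subunits, so its genes can be compared as parts of 1 complex. Tcp1, which encodes the alpha subunit, had 1138 and 1187 CPM in Batf3-/- libraries and 1526 and 1191 CPM in WT libraries. The log2 fold change was -0.22 ± 0.20 (SE; edgeR adjusted p = 0.958), with -0.42 within replicate 1 and -0.01 within replicate 2, so WT replicate 1 alone was set apart. The same library was highest for Cct4, which had 420 and 387 CPM in Batf3-/- libraries and 535 and 379 CPM in WT libraries (log2 fold change -0.18). The other subunits varied little: Cct2, Cct3, Cct5, Cct7 and Cct8 had log2 fold changes between -0.09 (Cct3) and 0.07 (Cct7). Cct2 averaged 643.9 ± 2.0 CPM in Batf3-/- and 651 ± 6.1 CPM in WT cells (SD, n = 2 each). In all, 1 of the 7 tested subunits had a positive log2 fold change and the median was -0.04. With upper-quartile scaling 3 of 7 were positive, and without Batf3-/- replicate 2 it was 4 of 7.

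Per kilobase of the longest coding transcript, the mean level of the subunits followed the order Tcp1, Cct2, Cct5, Cct7, Cct8, Cct4 and Cct3 in both genotypes. Tcp1 averaged 475 ± 14 CPM per kilobase in Batf3-/- and 555 ± 97 in WT cells, Cct2 329 ± 1.0 in Batf3-/- and 332 ± 3.1 in WT cells, and Cct3, at the other end, 147 ± 15 in Batf3-/- and 156 ± 0.68 in WT cells (SD, n = 2 each). Cct2 and Cct5 did not differ beyond their spread in Batf3-/- cells, at 329 ± 1.0 and 308 ± 24, nor did Cct8 and Cct4 in WT cells, at 197 ± 3.6 and 184 ± 45. The highest subunit exceeded the lowest 2.96 and 3.57 times in Batf3-/- libraries and 3.98 and 3.20 times in WT libraries. The order and the spread rest on the transcript length used. Over the length of all annotated exons, Cct2 (252 in Batf3-/- and 255 in WT cells) stood above Tcp1 (231 in Batf3-/- and 270 in WT cells) in Batf3-/- cells. On that scale Cct7 (83.0 in Batf3-/- and 79.1 in WT cells) stood below Cct8 and Cct4 in both genotypes, and the highest mean exceeded the lowest 5.53 times in Batf3-/- and 5.57 times in WT cells. Counts were fractional in 4 libraries for Tcp1 and Cct8 and in 3 for Cct7. No 75-base sequence of their longest transcripts occurs in transcripts of another annotated gene. Each overlaps a gene with a row on the opposite strand, such as Mrpl18 for Tcp1, and the effect on their levels was not tested.

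**Figure D3:**
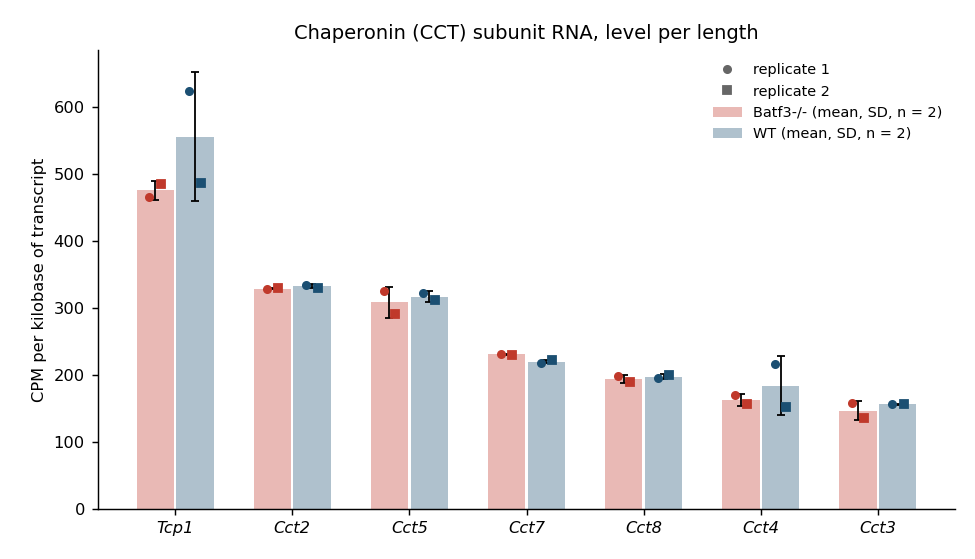
Level of the 7 chaperonin CCT subunit genes with a row, in normalised CPM per kilobase of longest coding transcript, in Batf3-/- and WT cells. Bars are means with SD (n = 2 each) and points single libraries, and Tcp1 is the highest subunit in all 4 libraries, with its highest point in WT replicate 1.

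In mitochondria, Hspa9 encodes the HSP70 of the matrix (mortalin), which pulls imported proteins in and folds them. Hspa9 had 482 and 488 CPM in Batf3-/- libraries and 431 and 549 CPM in WT libraries, with both Batf3-/- values between the WT values and a log2 fold change of -0.02 ± 0.20 (SE; edgeR adjusted p = 0.992). Trap1, the mitochondrial HSP90, averaged 96.9 ± 11 CPM in Batf3-/- and 97.4 ± 8.6 CPM in WT cells (SD, n = 2 each), a log2 fold change of -0.01.

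Hspd1 and Hspe1 encode HSP60 and its lid HSP10 and lie head to head on chromosome 1, Hspd1 at 55077835 to 55088243 on the minus strand and Hspe1 at 55088132 to 55091307 on the plus strand. Hspd1 had 479 and 506 CPM in Batf3-/- libraries and 362 and 553 CPM in WT libraries. The log2 fold change of Hspd1 was 0.11 ± 0.21 (SE; edgeR adjusted p = 0.975), with 0.40 within replicate 1 and -0.13 within replicate 2. Hspe1 had 290 and 264 CPM in Batf3-/- libraries and 420 and 290 CPM in WT libraries. The log2 fold change of Hspe1 was -0.36 ± 0.21 (SE; edgeR unadjusted p = 0.101, adjusted p = 0.958), with -0.53 within replicate 1 and -0.14 within replicate 2. Hspe1 passed the threshold without WT replicate 2, at -0.60 (edgeR adjusted p = 0.0305), and was at -0.08 (edgeR adjusted p = 0.990) without WT replicate 1.

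Although the pair shares its promoter region, its members went opposite ways in WT replicate 1, where Hspd1 was lowest and Hspe1 highest of the 4 libraries. The ratio of Hspd1 to Hspe1 counts was 1.65 and 1.92 in Batf3-/- libraries and 0.862 and 1.91 in WT libraries, so the ratio was low in WT replicate 1 alone. Of their possible 75-base reads, 33.7% in Hspd1 and 23.7% in Hspe1 also occur in other annotated genes without a row. Hspd1 and Hspe1 themselves overlap on opposite strands. In Batf3-/- replicate 1 both had fractional counts, 15221.12 for Hspd1 and 9210.88 for Hspe1, and in the other libraries whole counts. Whether reads were divided between these genes was not tested.

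Hspb1, the small heat shock protein HSP27 (HSP25 in mouse), which holds unfolded proteins without using ATP, was near the limit of detection. It had 0 and 7 counts in Batf3-/- libraries and 8 and 5 counts in WT libraries. A count of 0 in Batf3-/- replicate 1 allows up to 0.0944 CPM (3 counts), for counting error only, and no fold is given for it.

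WT replicate 1 lay at one end of the range for many members. It was the lowest of the 4 libraries in 13 of 30 members (32.4% of all tested genes), among them Hspa1a, Hspbp1, Cdc37, Fkbp4 and Hspd1. It was the highest in 9 members (33.3% of all tested genes), among them Hspe1, Chordc1, Cct4 and Tcp1. The Batf3-/- libraries were closer to each other than the WT libraries were in 22 of 30 members and in 62.0% of all tested genes, with a median absolute log2 ratio of 0.11 between Batf3-/- libraries and 0.23 between WT libraries. The same medians over all tested genes were 0.19 and 0.29. Within replicate 1 the log2 ratio of Batf3-/- over WT was positive in 18 of 30 members, with a median of 0.02, and in 48.7% of all tested genes. Within replicate 2 it was positive in 7 of 30 members, with a median of -0.09, and in 50.4% of all tested genes. Its sign was the same in both in 15 of 30 members, against 55.2% of all tested genes.

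**Figure D4:**
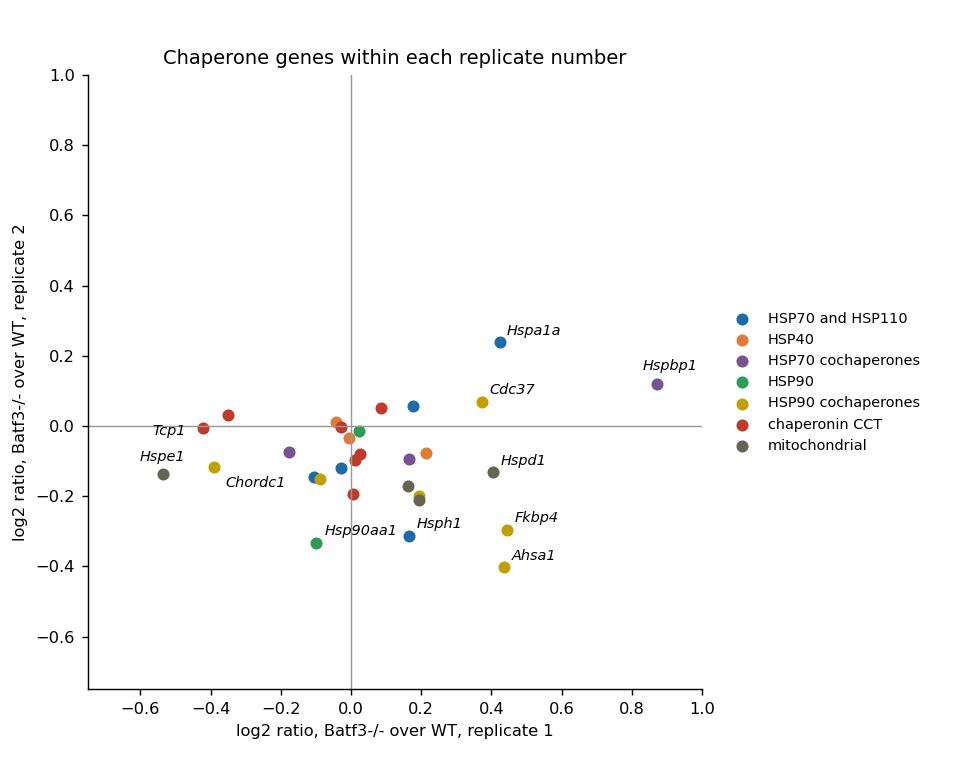
Log2 ratio of Batf3-/- over WT for each tested chaperone gene within replicate 1 (horizontal) and within replicate 2 (vertical), coloured by role. Hspbp1 reaches 0.87 in replicate 1 and 0.12 in replicate 2, and Hspd1, Fkbp4 and Ahsa1 are positive in replicate 1 and negative in replicate 2.

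The deviation of WT replicate 1 moved with base composition. Across the 30 members, its log2 CPM minus the mean of the other 3 libraries correlated with the GC content of the longest coding transcript at Pearson's r = -0.51 and Spearman's rho = -0.44, as it did across 12105 tested genes (-0.44 and -0.55). The log2 fold change also correlated with GC content, at Pearson's r = 0.60 across the members and 0.43 across the 12105 genes. For the log2 ratio within replicate 1, Pearson's r was 0.56 across the members and 0.43 across the 12105 genes. Within replicate 2, which leaves out WT replicate 1, it was 0.27 and 0.18. These are correlations across genes that share the same 4 libraries and are given without a test. In WT replicate 1, Hspbp1, the member with the highest GC content at 59.9%, was 0.75 below the other libraries on the log2 scale. Chordc1, the lowest at 35.7%, was 0.46 above them. Hspd1 at 46.8% and Hspe1 at 51.7% did not follow the order, at -0.50 and 0.58. With a correction for each library's trend on GC content, the log2 fold change became 0.17 for Hspbp1, 0.05 for Hspa1a and 0.04 for Chordc1, and it was -0.39 for Hspe1, 0.23 for Cdc37 and 0.18 for Hspd1. Of the other members whose genotypes did not overlap, St13 and Ptges3 stood at 0.03 each with this correction, Cct2 at 0.06 and Cct7 at -0.02. Hsp90aa1 stood at -0.08 and Tcp1 at -0.15. None of these passed the edgeR threshold, and the part of base composition in the other values was not tested further.

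**Figure D5:**
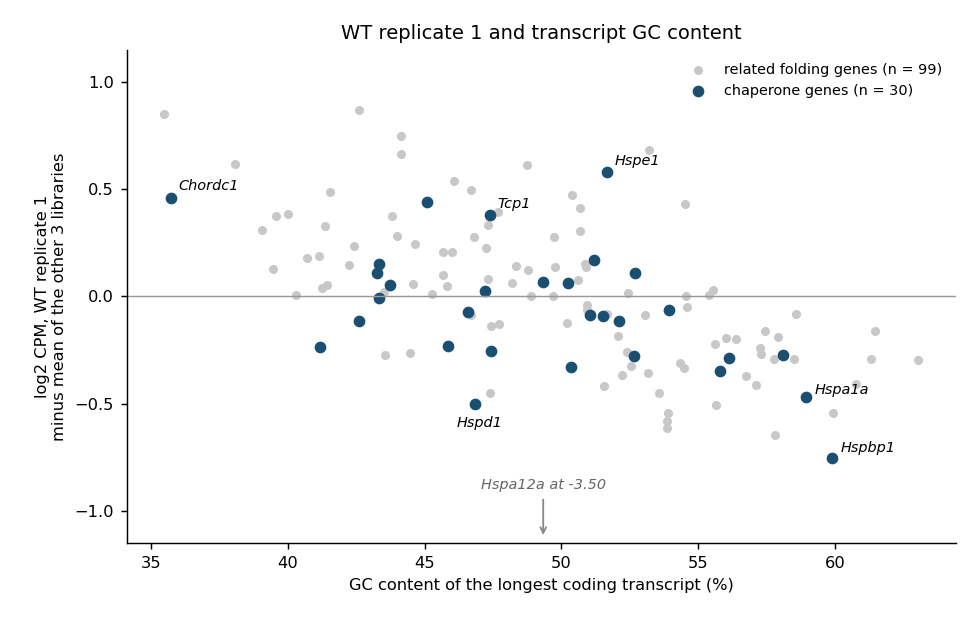
Deviation of WT replicate 1 from the mean of the other 3 libraries (log2 CPM) against GC content of the longest coding transcript (percent), for the 30 tested chaperone genes and 99 tested related genes. Points slope downwards, from Chordc1 at 0.46 to Hspbp1 at -0.75, and 1 related gene, Hspa12a at -3.50, lies off the axis and is marked by an arrow.

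The members were also divided by the heat shock pair. Of the 12 tested members with a pair, 7 had a positive log2 fold change, with a median of 0.04 and a range of -0.36 to 0.31. Of the 12 tested members with a window and no pair, 4 were positive, with a median of -0.02 and a range of -0.22 to 0.46. Hspa8, Hspa9, Hsp90aa1, Hsp90ab1, St13 and Cct4 had no window and are in neither group. Of all 30 tested members 40.0% were positive, and of all tested genes 48.4%. Both medians were small beside the members' standard errors, 0.184 to 0.250, and a difference between the groups was not tested. Both counts are of signs, and the GC correction changed the sign in 15 of the 30 tested members. Hspd1, Hspe1, Hsph1 and Chordc1, the genes with the longer element, had log2 fold changes of 0.11, -0.36, -0.09 and -0.27.

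Other genes of the folding network were read from the same fit, from lists of heat shock factors, further HSP70 and small heat shock proteins, J proteins, BAG and HSP90 partners, prefoldin and CCT partners, and mitochondrial folding and proteolysis. Of 109 genes listed, 108 had a row and 99 were tested. None passed the edgeR threshold, in either direction, against 0.132% of all genes, and DESeq2 and limma-voom also called 0. At an unadjusted p under 0.05 there were 2 by edgeR, against 4.8% of all genes. DESeq2 gave 3 (2.95% of all genes) and limma-voom 4 (5.09%). The log2 fold change was positive in 48 and negative in 51 of the 99, with a median of -0.02, and positive in 48.4% of all tested genes.

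Hsf1, the heat shock factor itself, had 32.6 and 29.3 CPM in Batf3-/- libraries and 18.9 and 27.3 CPM in WT libraries, a log2 fold change of 0.42 ± 0.22 (SE; edgeR adjusted p = 0.958). Both Batf3-/- values were above both WT values, and WT replicate 1 was again the lowest. Htra2, a protease of the mitochondrial intermembrane space, had a log2 fold change of 0.44 (edgeR unadjusted p = 0.0405, adjusted p = 0.958). Fkbp8, an immunophilin of the outer mitochondrial membrane, had one of 0.41 (edgeR unadjusted p = 0.0426, adjusted p = 0.958). In the other lists the smallest p belonged to Hspb11 (log2 fold change -0.52), the J protein gene Dnajb5 (0.48), Bag6, which guards exposed membrane segments (0.40), and Pfdn6, a prefoldin subunit (0.39), each with an edgeR adjusted p of 0.958. With WT replicate 2 left out, 5 of 99 related genes passed edgeR's threshold, a share close to the 4.46% of all genes tested: Hsf1 (0.71) and Bag6 (0.62) were higher, and Hspb11 (-0.88), Vbp1 (-0.79) and Yme1l1 (-0.63) were lower. With the GC correction, Fkbp8 stood at -0.04, Bag6 at 0.10, Hsf1 at 0.20 and Htra2 at 0.24.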

How the data were processed

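The authors deposited expected counts from RSEM, 1 value per gene and library, in which reads that fit several genes are divided between them. Alignment used STAR 2.5.0 and RSEM 1.2.25 on GRCm38, per the submitters' processing notes. Libraries were stranded, poly-A selected and read as 75-base single ends, per the labels' protocols. Which annotation release was used, and whether counting took account of strand, is not given in the sources used here. Overlapping genes and close copies are therefore uncertain. Some members that overlap a gene on the opposite strand had fractional counts, as given above for Hspd1, Hspe1 and CCT subunits. The 92 spike-in entries, at 0 throughout, were left out.

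Expected counts were rounded to whole numbers. The test was edgeR 4.0.16 under R 4.3.3 (filterByExpr at a minimum count of 10, TMM factors 0.982 to 1.02, robust quasi-likelihood, two-sided, genotype as the only term, all 4 libraries). Common biological variation amounted to a coefficient of 0.171. Levels are TMM-normalised CPM, log2 fold changes are Batf3-/- over WT, and intervals use the standard error with residual and prior degrees of freedom. Ratios between single libraries add a prior count of 0.5 before the log2. The code was checked on simulated counts.

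Members and lists were chosen with earlier results of these data known. Full values were given for the most abundant member of each role, the 3 members whose replicates differed most, and Hspa1a and Hspa1b. Of each related list the gene with the smallest p was named, with values per library for Hsf1 only. Hspe1, Chordc1, Hsp90aa1, Cdc37, Cct4, Hsph1 and Fkbp4 were described further after their values were seen, as were Vbp1 and Yme1l1. Positions, lengths, GC content and shared 75-base sequences came from GENCODE M21 on GRCm38 (1-based). Alternatives were upper-quartile scaling, size factors from DESeq2, at least 1 CPM in 2 libraries, no filter, DESeq2 1.42.0, limma-voom (limma 3.58.1), each library left out, a replicate block, a GC correction with and without the block, and Hspa1a and Hspa1b summed.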

Additional observations from a re-analysis of the deposited data

How the results depend on the processing

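No chaperone gene passed the threshold under the other scalings, filters and tools, the replicate block or the GC corrections. Leaving out single libraries gave 0 to 1 members higher and 0 to 1 lower, both without WT replicate 2 (Hspbp1 and Hspe1), and 0 to 5 related genes past the threshold. The number of members with a positive log2 fold change was 6 (when WT replicate 1 was dropped) to 17 and their median -0.076 to 0.069 over those settings. Over 13 settings 23 of 30 members changed sign at least once and 7 held it, and the GC correction alone turned 15. The cause was not tested.

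Over all genes, 10 were higher and 6 lower in Batf3-/- cells. Leaving out single libraries gave 11 to 301 higher and 7 to 252 lower. The highest counts came when WT replicate 2 was dropped, dropping WT replicate 1 left 38 higher and 24 lower genes, and dropping Batf3-/- replicate 2 left 23 higher and 15 lower. DESeq2 gave 20 higher, and the GC correction gave 5 higher. With the replicate number as a block there were 81 higher and 31 lower, and with block and GC correction 55 and 33; no member passed under either. The labels do not say what the replicate numbers mark, although a title prefix and Xist go with them. The main fit had genotype as its only term, and whether the numbers pair the samples was not tested. The replicate 1 minus 2 differences of the genotypes correlated at 0.11 over all tested genes and 0.16 over the members. These correlations rest on 2 pairs and include WT replicate 1, so they cannot decide whether the samples are paired. Hspa1a and Hspa1b summed stayed uncalled (0.20). Depth limits Hspb1, with at most 8 counts in a library. A lone library left in a genotype is assumed to vary like the other genotype.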
